A study of Homo sapiens with 4 samples.

Results

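Expression of 10 genes of the epithelial-mesenchymal transition (EMT) was examined: the transcription factors SNAI1, SNAI2, ZEB1, ZEB2, TWIST1, TWIST2, PRRX1, GRHL2 and OVOL1, and vimentin (VIM). They were taken by name from the 19626 genes of the deposited tables, where all 10 are present, and 8 had enough reads to be tested. RNA was sequenced from ES-2, an established human ovarian cancer line labelled as clear cell carcinoma, which carries the YAP1-MAML2 (YM) fusion. Cells of both groups carried the endogenous fusion and a pLKO.1 lentivirus, and were grown in DMEM with serum. The virus expressed either a nontargeting control shRNA (shCtl, n = 2 biological replicates) or shM2-3 (labelled as MAML2 shRNA, n = 2), which is directed at a part shared by MAML2 and the fusion and can act on both transcripts. RNA was isolated 96 h after the first infection per the sample labels, whereas the study's methods give a shorter time. The comparison rests on 1 cell line and 1 targeting shRNA, so effects of that hairpin on other transcripts cannot be told apart from those of the knockdown. The labels call the replicates biological, and p-values measure the spread between these libraries of 1 line.

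EMT is the switch by which epithelial cells give up their junctions and take on the shape and motility of mesenchymal cells. It is driven by a small group of transcription factors. The SNAI and ZEB proteins are zinc finger repressors that bind E-box sequences in the promoters of epithelial genes such as CDH1. TWIST1 and TWIST2 are basic helix-loop-helix factors, and PRRX1 is a homeobox factor. GRHL2 and OVOL1 act on the other side, as factors that keep cells epithelial, and vimentin is the intermediate filament protein of mesenchymal cells. ZEB1 has also been described as a partner of YAP1, the transcriptional co-activator of the Hippo pathway.

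Library totals lay between 20051083 and 23978660 estimated counts. MAML2 fell from an RPKM of 8.61 and 8.26 in shCtl to 3.11 and 2.998 in shM2-3. The fusion contains part of MAML2, so these values can pool reads of native MAML2 and the fusion and cannot separate them. RPKM corrects a read count for the length of the transcript and the depth of the library. In all 4 libraries, defining markers of the labelled tumor type were near 0: NAPSA reached an RPKM of at most 0.369, PAX8 0.189 and EPCAM 0.150, whereas the keratin KRT7 was at 269 and 267 in shCtl. Of the 9 markers in that list 8 had a row, and 6 of these stayed at an RPKM of 1 or less in every library. Among 5 leukocyte markers with a row, CD68, a lysosomal protein, was the highest and carried most of the summed RPKM (57.4 to 58.3 in shCtl, 40.0 to 41.1 in shM2-3), and PTPRC reached at most 0.0173. Among 5 endothelial markers the sum was 9.40 and 10.6 in shCtl and 5.67 and 5.10 in shM2-3, with CDH5 the highest (9.14 and 10.2, then 4.17 and 4.03). PECAM1, of the same list, went the other way, from an RPKM of 0.0376 and 0.0308 to 1.31 and 0.923. In bulk RNA a change in the number of cells of a type and a change in RNA per cell cannot be told apart. The part of these RNAs in the differences described below was not tested.

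The ZEB factors and the microRNAs of the miR-200 family repress each other, and this loop is a known hinge of EMT. The mature sequences (RefSeq, GRCh38.p14) are shown because their seeds (bases 2 to 8, in capitals) define the sites that ZEB1 and ZEB2 share. One seed group holds hsa-miR-200b-3p, hsa-miR-200c-3p and hsa-miR-429, and the other hsa-miR-200a-3p and hsa-miR-141-3p.
hsa-miR-200b-3p: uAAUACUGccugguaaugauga
hsa-miR-200c-3p: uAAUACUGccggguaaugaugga
hsa-miR-429: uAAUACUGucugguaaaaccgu
hsa-miR-200a-3p: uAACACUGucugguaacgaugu
hsa-miR-141-3p: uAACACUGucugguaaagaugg

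In the canonical GENCODE v44 transcript, the 3′ untranslated region of ZEB1 (2540 bases) held 6 matches to the first seed and 3 to the second, and that of ZEB2 (5370 bases) held 5 and 4. Both genes thus carried 9 sites, and only 2 of 11100 tested genes with such a region carried more. For comparison, 19.8% of those genes had at least 1 match to the first seed and 21.8% to the second. SNAI2 and GRHL2 held 1 match each, and none was found in SNAI1, TWIST1, TWIST2, VIM, OVOL1 or PRRX1. The first site of each kind along the region is given below in transcript orientation on hg38, with the seed match in capitals. The first pair lies at chr10:31527618-31527640 and chr10:31528031-31528053 on the plus strand, and the second at chr2:144389052-144389074 and chr2:144389236-144389258 on the minus strand.
ZEB1, first seed: attgttttatcttatCAGTATTa
ZEB1, second seed: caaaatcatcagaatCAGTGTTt
ZEB2, first seed: cgcactaccatacatCAGTATTt
ZEB2, second seed: tgcaaaaattttgtaCAGTGTTa
The deposited data hold no entry under the names of the genes of these microRNAs. Their levels could thus not be analysed, and the matches are a description of the transcripts only.

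ES-2 cells expressed SNAI1, SNAI2, ZEB1, ZEB2, TWIST1, TWIST2, PRRX1 and VIM, each with an RPKM above 1 in all 4 libraries, and had almost no reads on GRHL2 and OVOL1. In control cells VIM stood far above the others, with an RPKM of 2873 and 2969, and was the gene with rank 4 of the whole table in both shCtl libraries. TWIST1 followed with 25.9 and 22.7, SNAI2 with 19.8 and 19.3, TWIST2 with 10.97 and 11.1, PRRX1 with 10.1 and 9.40, ZEB1 with 7.95 and 7.71, ZEB2 with 7.17 and 7.08 and SNAI1 with 6.94 and 7.18. Replicate ranges of neighbors in this order did not overlap, except those of ZEB2 and SNAI1. GRHL2 had 1 count in shCtl replicate 1 and 0 in the other 3 libraries. OVOL1 had 3 counts in shM2-3 replicate 1 and 0 elsewhere. Both are at or under a floor of 3 counts per library, which corresponds to an RPKM of 0.0198 to 0.0242 for GRHL2 and 0.0350 to 0.0429 for OVOL1, so neither was tested and no fold change is given. A limit from a count of 0 covers counting error only.

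**Figure D1:**
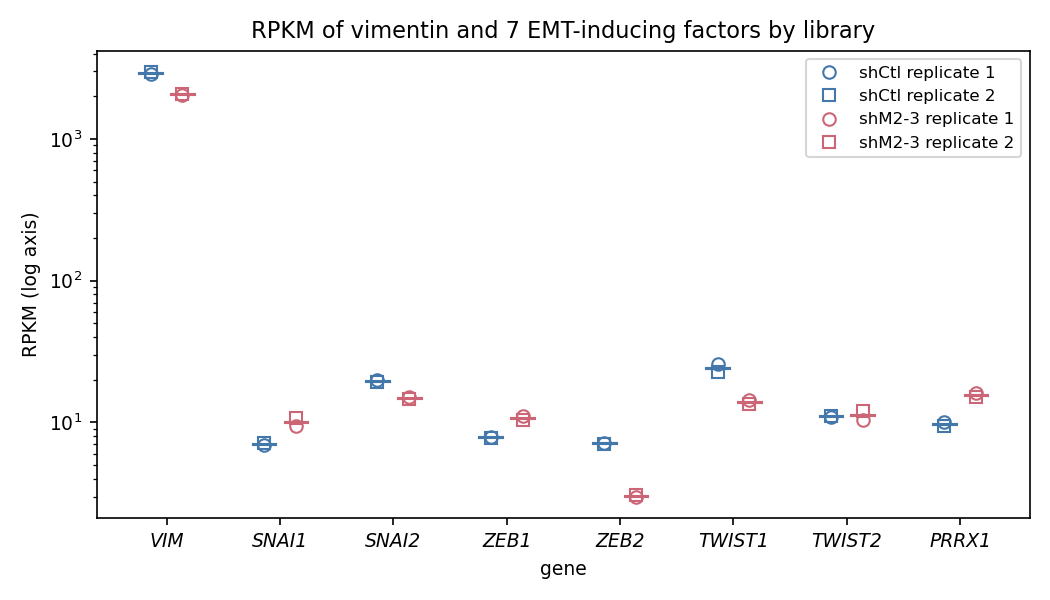
RPKM (log axis) of vimentin and of the 7 factors with an RPKM above 1, with 1 point per library (circles for replicate 1, squares for replicate 2) and a line at the mean of each group (n = 2). Points of shCtl and shM2-3 were separated for every gene shown except TWIST2, and ZEB2 had the widest gap on this axis.

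The test was edgeR's quasi-likelihood test on estimated counts, with Benjamini-Hochberg adjustment over the 12157 genes that exceeded an RPKM of 1 in any library. Genes with an adjusted p up to 0.05 are said below to have risen or fallen, and those that also changed by at least 2-fold are said to be called. Of the 8 EMT genes tested, 1 was called, ZEB2, which fell. The background was 18.2% of all genes tested called in either direction. Without the fold change limit, 4 fell (ZEB2, TWIST1, VIM and SNAI2), 3 rose (PRRX1, SNAI1 and ZEB1) and TWIST2 did not pass, against a background of 72.7%. The RPKM of the groups did not overlap for 7 of the 8, where the background was 86%. These shares lie near those of all genes. The median log2 fold change of the 8 was -0.12, beside -0.0037 over all genes tested.

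**Figure D2:**
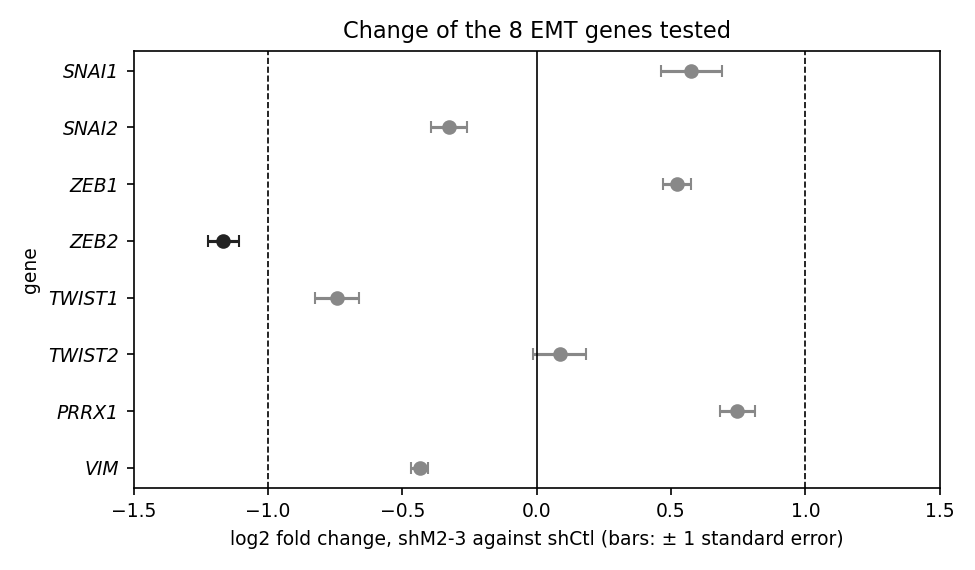
Log2 fold change of shM2-3 against shCtl for the 8 EMT genes tested, with bars of 1 standard error on either side and dashed lines at a fold change of 2. Only ZEB2 (black), at -1.17, lies beyond a dashed line, and SNAI1, ZEB1 and PRRX1 lie on the opposite side of 0.

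ZEB2 (chromosome 2, 144364364 to 144521057, minus strand, hg38 with GENCODE v44) is a zinc finger repressor and the paralogue of ZEB1. Control libraries held 1963 and 1971 counts and knockdown libraries 1002 and 931, which is an RPKM of 7.13 ± 0.0649 (SD, n = 2) and 3.03 ± 0.0555 (SD, n = 2). Both shM2-3 libraries were far below both shCtl libraries, and 42.6% of the control RPKM remained. The log2 fold change was -1.17 (standard error 0.0576, adjusted p = 5.41e-10 in edgeR). ZEB2-AS1, annotated on the opposite strand at the start of the gene, had at most 1 count in a library.

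ZEB1 (chromosome 10, 31318495 to 31529814, plus strand) moved the other way. Its counts of 1534 and 1513 in control cells compare with 2608 and 2231 after knockdown, and its RPKM with means of 7.83 ± 0.167 (SD, n = 2) and 10.7 ± 0.430 (SD, n = 2). The groups did not overlap, and the log2 fold change was 0.52 (standard error 0.0522, adjusted p = 8.06e-07 in edgeR), under the fold change limit. ZEB1-AS1, a noncoding RNA gene that starts beside ZEB1 and is read from the opposite strand, fell, with an RPKM of 2.73 and 2.72 in shCtl and 1.81 and 1.63 in shM2-3 and a log2 fold change of -0.60 (adjusted p = 0.00242). The libraries carry no strand, so reads from the part where ZEB1 and ZEB1-AS1 overlap cannot be assigned to one of them.

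The RPKM of the ZEB pair was nearly equal in control cells and far apart after knockdown. The ratio of ZEB1 to ZEB2 within a library was 1.11 and 1.09 in shCtl and 3.69 and 3.4 in shM2-3. The log2 fold change of ZEB1 exceeded that of ZEB2 by 1.69 (standard error 0.0777, from the standard errors of both genes). The same was done for the other paralogues. With 2 against 2 libraries an exact permutation test of a ratio cannot go below p = 0.333, so these differences are given with their errors and no test.

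SNAI1 (chromosome 20, 49982980 to 49988886, plus strand), which encodes Snail, a direct repressor of CDH1, had the lowest counts of the factors tested, 277 and 291 in control cells and 458 and 474 after knockdown. Mean RPKM values were 7.06 ± 0.168 (SD, n = 2) for shCtl and 10.1 ± 0.945 (SD, n = 2) for shM2-3. Both shM2-3 libraries were above both shCtl libraries, and the log2 fold change was 0.58 (standard error 0.113, adjusted p = 0.000428 in edgeR).

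SNAI2 (chromosome 8, 48917598 to 48921740, minus strand), which encodes Slug, gave 1010 and 1002 counts in the control libraries against 943 and 828 after knockdown. As RPKM, the means were 19.5 ± 0.331 (SD, n = 2) and 14.9 ± 0.323 (SD, n = 2), so that 76.1% remained. The groups did not overlap, but this was the smallest change of the 7 genes that passed, at -0.33 on the log2 scale (standard error 0.0676, adjusted p = 0.000668). The SNAI2 to SNAI1 ratio was 2.85 and 2.69 in shCtl and 1.61 and 1.36 in shM2-3. SNAI2 remained the more abundant of the pair in every library, while the difference in log2 fold change was -0.90 (standard error 0.131).

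TWIST1 (chromosome 7, 19020991 to 19117636, minus strand) had the highest RPKM in control cells of the 7 SNAI, ZEB, TWIST and PRRX1 factors. From 1072 and 958 counts it went to 725 and 615, and its RPKM fell from 24.3 ± 2.22 (SD, n = 2) to 13.8 ± 0.633 (SD, n = 2). The log2 fold change was -0.74 (standard error 0.0820, adjusted p = 2.2e-06), a fold change of 1.67. All knockdown values lay below all control values, which were also the more variable pair.

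TWIST2 (chromosome 2, 238848032 to 238910534, plus strand), the paralogue of TWIST1, did not pass the test. Counts of 468 and 481 were seen in control cells and of 540 and 568 after knockdown, and the RPKM was 11.03 ± 0.0817 (SD, n = 2) and 11.2 ± 1.19 (SD, n = 2). The shCtl libraries lay between the shM2-3 libraries, and the log2 fold change was 0.09 (standard error 0.0994, adjusted p = 0.454). The TWIST1 to TWIST2 ratio was 2.36 and 2.05 in shCtl and 1.38 and 1.11 in shM2-3, with a difference in log2 fold change of -0.83 (standard error 0.129).

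**Figure D3:**
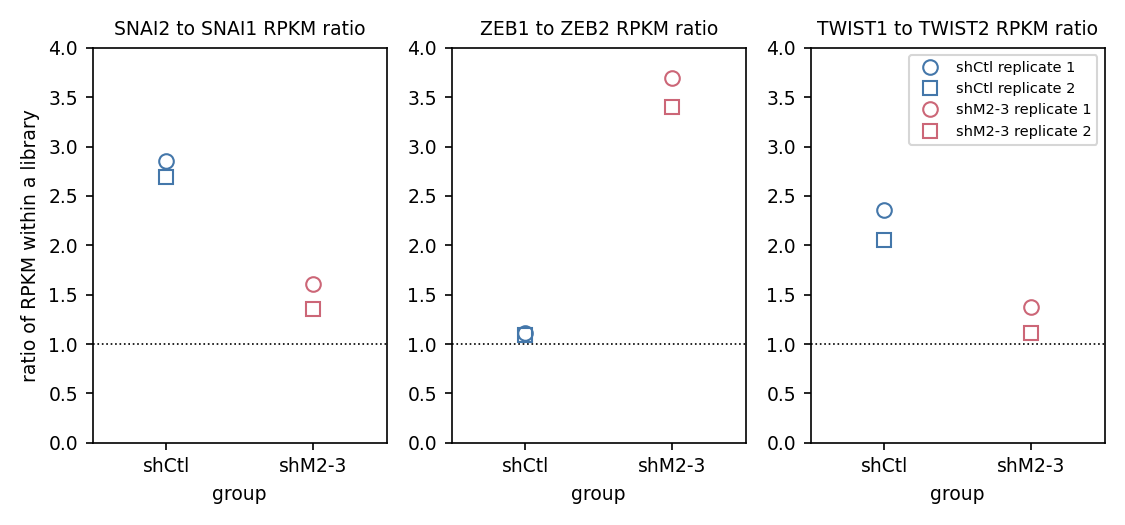
Ratio of RPKM between paralogues within each library (dotted line at 1), with circles for replicate 1 and squares for replicate 2. The ZEB1 to ZEB2 ratio was 1.11 and 1.09 in shCtl and 3.69 and 3.4 in shM2-3, whereas the SNAI2 to SNAI1 and TWIST1 to TWIST2 ratios fell below their control values in each shM2-3 library.

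PRRX1 (chromosome 1, 170662728 to 170739421, plus strand), a homeobox factor of mesenchymal cells, rose the most of the 8 genes tested. Control cells gave 976 and 926 counts and knockdown cells 1915 and 1614, so that the mean RPKM was 9.74 ± 0.481 (SD, n = 2) and 15.6 ± 0.794 (SD, n = 2). Both shM2-3 libraries were above both shCtl libraries, and the log2 fold change was 0.75 (standard error 0.0647, adjusted p = 1.9e-07 in edgeR). At a fold change limit of 1.5 in place of 2, PRRX1 was called higher, and TWIST1 joined ZEB2 as called lower.

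VIM (chromosome 10, 17228241 to 17237593, plus strand) was counted 144960 and 152350 times in control cells and 125680 and 116647 times after knockdown. Mean RPKM was 2921 ± 68.1 (SD, n = 2) and 2062 ± 36.2 (SD, n = 2), and it took 0.723% and 0.746% of all counts in control cells, down to 0.524% and 0.535% after knockdown. The groups were well apart, and the log2 fold change was -0.44 (standard error 0.0302, adjusted p = 1.96e-08). VIM still held rank 6 of 19626 genes in both shM2-3 libraries. VIM-AS1, its antisense neighbor, had an RPKM of 2.35 and 1.93 in shCtl and 2.21 and 1.79 in shM2-3. It did not pass (log2 fold change -0.03, adjusted p = 0.908 in edgeR). VIM-AS1 overlaps VIM on the opposite strand, so without strand information reads from the shared part cannot be assigned to one of them.

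After knockdown the order of the factors was therefore different. PRRX1 (16.2 and 15.1) and SNAI2 (15.1 and 14.6) led with overlapping ranges, followed by TWIST1 (14.3 and 13.4), TWIST2, ZEB1 and SNAI1, and ZEB2 (2.995 and 3.07) was last. Ranges of TWIST2 and ZEB1 and of ZEB1 and SNAI1 also overlapped. The summed RPKM of these 7 factors was 88.7 and 84.5 in shCtl and 79.4 in each shM2-3 library. Of the further paralogues of the transcription factors, 5 had a row and GRHL3 had none. Those with a row stayed at an RPKM under 1 in every library. GRHL1 was at 0.311 and 0.341 in shCtl and 0.626 and 0.519 in shM2-3. SNAI3 was at 0.177 or less, and PRRX2, OVOL2 and OVOL3 had at most 2 counts in a library.

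RefSeq promoters (250 bases before to 50 after a start, GRCh38.p14) were searched on both strands for the TEAD element GGAATG and for the E-box CAGGTG, the form bound by SNAI and ZEB proteins. Of 35116 promoters, 14% held the TEAD element and 20.6% the E-box. Entries were found for ZEB1 (7 starts), ZEB2, TWIST2, VIM and PRRX1. SNAI1, SNAI2, TWIST1, GRHL2 and OVOL1 had none. Of the 7 ZEB1 windows, 1 held both motifs, the TEAD element at position -1 and the E-box at -57 from the start, and 1 held 3 E-boxes. The single windows of ZEB2, TWIST2, VIM and PRRX1 held neither. ZEB1 had 7 windows in which a motif could occur and ZEB2 had 1, so motif counts of these genes cannot be compared. The ZEB1 window with both motifs (in capitals) and the ZEB2 window are printed as examples. They lie at chr10:31318167-31318466 on the plus strand and chr2:144520070-144520369 on the minus strand.
ZEB1 promoter: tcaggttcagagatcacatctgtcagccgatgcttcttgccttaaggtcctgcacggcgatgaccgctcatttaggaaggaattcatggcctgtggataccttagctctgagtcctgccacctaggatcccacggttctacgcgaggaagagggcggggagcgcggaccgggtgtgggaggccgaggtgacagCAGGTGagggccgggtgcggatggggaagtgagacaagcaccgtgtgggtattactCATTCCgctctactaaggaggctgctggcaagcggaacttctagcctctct
ZEB2 promoter: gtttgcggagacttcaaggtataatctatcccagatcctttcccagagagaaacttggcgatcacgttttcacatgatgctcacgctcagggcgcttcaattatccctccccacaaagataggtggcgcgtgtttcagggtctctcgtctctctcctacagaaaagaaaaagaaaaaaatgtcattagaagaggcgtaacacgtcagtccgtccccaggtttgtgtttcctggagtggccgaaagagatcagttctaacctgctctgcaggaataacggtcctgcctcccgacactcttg
A match is a description of these letters and no evidence of binding.

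Epithelial genes, the class that SNAI and ZEB proteins repress, were mostly not expressed in either group. Of 36 with a row, 25 had an RPKM of 1 or less in every library, among them CDH1, which encodes E-cadherin, with counts of 0 and 4 in control cells and 0 and 3 after knockdown, and EPCAM, ESRP1, CLDN7 and RAB25. Of the 11 tested, 3 were called lower and 1 higher (27.3% and 9.09%, against 8.93% and 9.24% of all genes), and 8 fell and 2 rose without the fold limit, where 36.4% and 36.3% of all genes did. Their median log2 fold change was -0.80. CGN, MUC1 and SPINT2 passed the filter on low values through 1 group or through fewer than all libraries. Of the 8 genes with an RPKM above 1 in all 4 libraries, 2 were called lower and none higher, beside 6.51% and 6.59% of all such genes.
The keratin KRT7 had an RPKM of 269 and 267 in shCtl and 108 and 107 in shM2-3 (log2 fold change -1.26), and KRT8, a keratin of simple epithelia, 73.3 and 70.5 against 29.1 and 29.7 (-1.22). CGN, which encodes the tight junction protein cingulin, fell by 2.54 on the log2 scale from 1.17 and 1.19 RPKM. MUC1, a cell surface mucin, was called higher with a log2 fold change of 1.05. That call was lost without shCtl replicate 2 (0.98) and without shM2-3 replicate 2 (0.88), both under a fold change of 2. F11R, a junctional adhesion protein, lay nearest to no change at -0.41.

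Genes of the mesenchymal state were largely expressed and moved in both directions. Of 37 in the list 30 were tested, 13 were called higher and 4 lower (43.3% and 13.3%, against 9.24% and 8.93% of all genes). Without the fold limit 18 rose and 10 fell, where 36.3% and 36.4% of all genes did. The median log2 fold change was 0.75. Among the 27 with an RPKM above 1 in all 4 libraries, 12 were called higher and 3 lower, beside 6.59% and 6.51% of all such genes.
Besides FN1 (fibronectin, 4.22), the highest were ITGA5, the alpha chain of a fibronectin receptor, at 30.9 and 33.5 RPKM in shCtl and 190 and 193 in shM2-3 (log2 fold change 2.64), and MMP2, a gelatinase, at 43.3 and 44.4 against 215 and 216 (2.36). Genes called lower included the receptor tyrosine kinase AXL (log2 fold change -2.41) and the collagen crosslinking enzyme LOX, which fell from 361 and 375 RPKM to 87.8 and 88.9 (-1.99). Also called lower was ACTA2, smooth muscle actin, named after its values were seen (-1.54). CDH2, which encodes N-cadherin and was named after its values were seen, rose under the limit, from 36.5 and 37.1 RPKM to 44.8 and 44.2 (0.34). LGALS1 (galectin) lay nearest to no change at -0.05 (adjusted p = 0.262).
The fibroblast markers DCN, LUM and POSTN reached an RPKM of at most 0.0913, and COL3A1 of at most 0.0636. The summed RPKM of all 7 fibroblast markers was nevertheless 12.8 and 12.6 in shCtl and 35.0 and 34.8 in shM2-3, carried by PDGFRA and FAP, the 2 that exceeded an RPKM of 1.

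**Figure D4:**
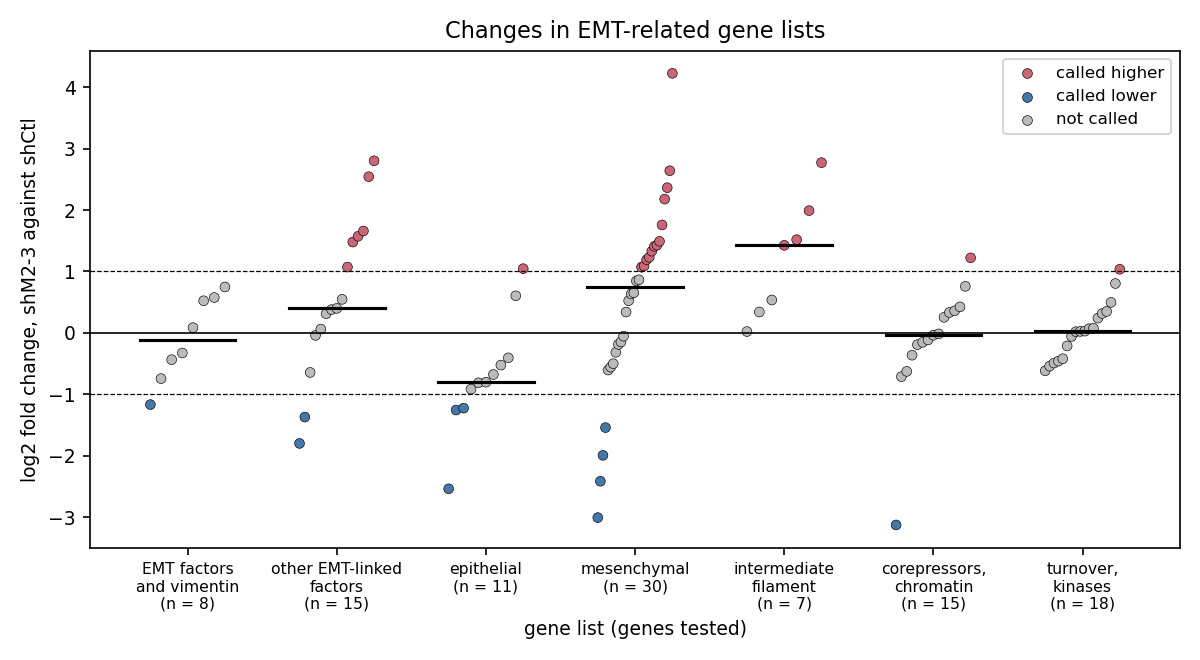
Log2 fold change of shM2-3 against shCtl for each tested gene of 7 lists, with colors for genes called higher or lower, a line at each list's median and dashed lines at a fold change of 2. Points and medians include genes that passed the filter through 1 group only, such as NES and INA. With genes above an RPKM of 1 in all 4 libraries alone, the intermediate filament median was 0.535 in place of 1.43. The epithelial median was then -0.74 in place of -0.80, and the mesenchymal median 0.65 in place of 0.75. The mesenchymal list reaches 4.22 and holds genes called in both directions, whereas 7 of the 8 EMT factors and vimentin lie between the dashed lines.

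Other transcription factors linked to EMT or to epithelial identity were counted in the same way. Of 20 with a row 15 were tested, 6 were called higher and 2 lower (40% and 13.3%, against 9.24% and 8.93% of all genes), and the median log2 fold change was 0.40. HMGA2, an architectural chromatin protein, had an RPKM of 8.66 and 7.74 in shCtl and 54.7 and 54.4 in shM2-3 (log2 fold change 2.80), SOX9 rose from 12.1 and 13.1 to 69.0 and 71.6 (2.54), and SOX4 rose from 16.0 and 15.7 to 46.9 and 48.8 (1.66). ETS1 fell from 72.9 and 74.3 to 19.98 and 20.4 (-1.80). FOXA2 lay nearest to no change at -0.04. The E proteins, which pair with TWIST factors, were named after their values were seen: TCF3 (0.38) and TCF4 (0.55) rose under the limit, and TCF12 did not pass (0.06, adjusted p = 0.217). ID1 and ID3, inhibitors that bind E proteins and were named in the same way, were called higher at 1.07 and 1.57, and ID2, of the same family, did not pass (0.31, adjusted p = 0.370).

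Genes for partners of these proteins, and for relatives of vimentin, were counted last. For vimentin these were intermediate filament genes other than VIM and the keratins, together with the linker gene PLEC. They were listed by family, and not all of their proteins need pair with vimentin. Of the genes in this list, 5 had an RPKM above 1 in all 4 libraries, among them the nuclear lamin genes LMNA and LMNB1. Among these 5, 2 were called higher and none lower, beside 6.59% and 6.51% of all such genes. PLEC, the plectin linker of vimentin filaments, rose from 19.3 and 20.5 RPKM to 75.8 and 75.2 (log2 fold change 1.99), SYNM (synemin) from 1.71 and 1.98 to 5.48 and 4.60 (1.52), and NES (nestin) from 0.314 and 0.430 to 2.48 and 2.38 (2.77). INA, named after its values were seen, rose by 1.43 and was under the limit without shCtl replicate 1 (0.98). NES and INA were tested only through the shM2-3 libraries, where they are high, and are not among the 5. LMNB1 lay nearest to no change at 0.02.
Of 15 corepressors and other partners of SNAI and ZEB proteins tested, 1 was called lower and 1 higher (6.67% each, under the 8.93% and 9.24% of all genes). The list includes the co-activator YAP1, which was not called. The fusion contains part of YAP1, so its values can pool reads of native YAP1 and the fusion. AJUBA, a LIM protein that binds SNAI factors, fell from 41.5 and 43.7 RPKM to 4.67 and 4.66 (-3.13), and the histone deacetylase HDAC1 rose from 44.2 and 44.9 to 98.0 and 100.4 (1.22). CTBP2, the ZEB corepressor, was at -0.02 (adjusted p = 0.780).
Of 18 ubiquitin ligases, kinases and other regulators of these proteins, 1 was called higher, the ubiquitin ligase SIAH1 (1.04), and none lower. That is 5.56% called higher and 0% lower, under the 9.24% and 8.93% of all genes. Without the fold limit 5 rose, 5 fell and 8 did not pass, where 36.3% of all genes rose and 36.4% fell. FBXL14, a ligase for SNAI1, lay nearest to no change at 0.02.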

How the data were processed

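Per the labels and the study's methods, the authors mapped 150-base read pairs to hg38 using HISAT2 2.0.4, dropped ambiguous and poorly mapped reads, and quantified RefSeq genes in Partek 7.18. Libraries were not strand-specific. The deposited estimated counts are raw and need not be whole (42.4% to 48.6% per library are). The deposited RPKM values were made by the authors from them by length and library. Coordinates come from GENCODE v44, on the build the authors used.

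After rounding, counts were compared in edgeR 4.0.16 (R 4.3.3) with TMM factors, estimateDisp and the quasi-likelihood test (glmQLFit, glmQLFTest), without a block, and adjusted by Benjamini-Hochberg over 12157 genes. Rounding was added because the test had been planned for whole counts. Standard errors are the size of the log2 fold change over the square root of F. The procedure was checked on simulated data. The biological coefficient of variation was 0.0485, and each SD rests on 2 libraries. Replicates were distinct, differing 3.46 (shCtl) and 3.98 times (shM2-3) as much as sampling gives (chi-square over its degrees of freedom, genes with at least 20 counts). Alternatives were DESeq2 1.42.0, limma 3.58.1 on log2(RPKM + 0.1) and log2(RPKM + 1), total counts, RLE factors, other filters and fold limits, a replicate block, and leaving out each library.

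The genes and lists were chosen with earlier results of these data known. Besides the 10 genes, paralogues of the factors and antisense neighbors, the text names genes by a rule. These are the 3 lowest and 3 highest called genes of each list, the gene nearest to no change, and the highest gene of a marker list. Exceptions are marked as named after their values were seen, or are defining markers shown for their low level. A few genes that meet this rule are left out of the text.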

Additional observations from a re-analysis of the deposited data

How the results depend on the processing

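Over 12 alternatives the 8 EMT genes gave 96 comparisons, and 95 kept the direction and the side of the adjusted p limit. The exception was TWIST2, whose log2 fold change ran from -0.030 (without shM2-3 replicate 2) to 0.20 (without shM2-3 replicate 1) and never passed. ZEB2 stayed between -1.21 and -1.01. At a fold change limit of 1.5, 2 of the 8 were called lower and 1 higher, and with no fold limit 4 and 3. Epithelial genes called lower were 6 with no filter on low values, 6 with filterByExpr, 6 at the limit of 1.5 and 8 with no fold limit, and those called higher were 2 in each of these. No epithelial gene was called higher with limma on either RPKM scale (0 and 0), and leaving out 1 library gave 0 to 1. With no fold limit 10 mesenchymal genes were lower. Corepressors and other partners of SNAI and ZEB proteins called lower and higher were 3 and 2 at the limit of 1.5 and 6 and 6 with none. Turnover genes and kinases were 1 and 2 at 1.5, 5 and 5 with none, and 0 were higher with limma on either scale, where SIAH1 was not called. The other list counts stayed within 1.5 times under the alternatives run. Over all genes, 723 were lower and 596 higher with limma on log2(RPKM + 1), against 1086 and 1123.

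No shared deviation by replicate number was seen: deviations of the replicate 1 libraries of both groups had a correlation of -0.00813 over genes. This value cannot tell whether libraries with the same number were prepared together, which the labels do not state. With the replicate number as a block, 1079 genes were called lower and 1123 higher, and 1 of the 8 EMT genes was called lower and 0 higher, as without the block. Precision is limited by 2 libraries per group, by 1 shRNA and, for GRHL2 and OVOL1, by counts at or under 3.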
